A study of Mus musculus with 9 samples.

Results

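The genes described here are those of the mitochondrial respiratory chain and ATP synthase, in differentiating mouse neural progenitors. They were chosen by symbol: every gene whose symbol starts with Nduf, Uqcr, Cox4 to Cox8 or Atp5, the genes Sdha to Sdhd, and the genes of mitochondrial DNA whose symbols start with mt-Nd, mt-Co, mt-Cytb or mt-Atp. This gave 106 of the 38197 symbols in the table, 93 of them nuclear and 13 mitochondrially encoded. Wild type embryonic stem cells of mouse strain 129 were grown as a monolayer and driven towards ventral hindbrain cell types. For this, retinoic acid (RA) and the Smoothened agonist SAG were both given from 0 to 3 DDC (days in differentiation conditions). The paper's methods put the change to medium without these supplements later than 3 DDC. Progenitors carrying the surface protein prominin-1 were sorted at 4.5DDC, 5.5DDC and 6.5DDC, with 3 libraries at each time point, and polyA-selected RNA was sequenced. Another label field of the earliest samples gives their age as 4 days. The comparisons between time points ask how RNA levels differ as the progenitors age in culture. Library totals were 17820601, 11244486 and 14390488 counts at 4.5DDC, 25506193, 11573523 and 11066568 at 5.5DDC, and 12851786, 16479972 and 15913821 at 6.5DDC, for replicates 1, 2 and 3 in turn. The labels do not say whether replicates came from separate cultures, so p-values measure only the spread between these samples. In bulk RNA, fewer cells of a type and less RNA per cell cannot be told apart.

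The respiratory chain passes electrons from NADH and succinate to oxygen through complexes I to IV of the inner mitochondrial membrane, and complex V uses the resulting proton gradient to make ATP. Complexes I, III, IV and V are built from nuclear subunits that are imported into the organelle and from subunits encoded and translated inside it, whereas complex II is wholly nuclear. Stem cells and dividing progenitors are known for high glycolysis, and neurons for their reliance on oxidative phosphorylation.

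Levels between genes were compared as FPKM, which scales fragments by transcript length and by library depth. The mitochondrially encoded genes were far above the nuclear ones: the median of the mean FPKM over 9 libraries was 2334 for the 13 and 68.2 for the 93. Among nuclear genes the medians were 148 for complex V, 134 for complex II, 117 for complex IV, 75.7 for complex III, 62.4 for the complex I core, 57.8 for the complex I accessory subunits and 10.03 for the assembly factors. The median of the assembly factors was thus below those of the subunits, although single subunits such as Atp5s (5.45 FPKM) lay lower still. The lowest class was that of the tissue-restricted isoforms, with a median of 0.331 FPKM. Within mitochondrial DNA, mt-Atp6 had the highest mean (8629 FPKM) and mt-Nd6, which is transcribed from the opposite strand to the other protein genes, the lowest (18.4 FPKM). The RNA was polyA-selected, and how fully that selection captured mt-Nd6 was not tested, so its low FPKM may not be its RNA level in the cells. The nuclear gene with the highest mean was Atp5b, the catalytic beta subunit of ATP synthase, at 1270 FPKM.

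**Figure D1:**
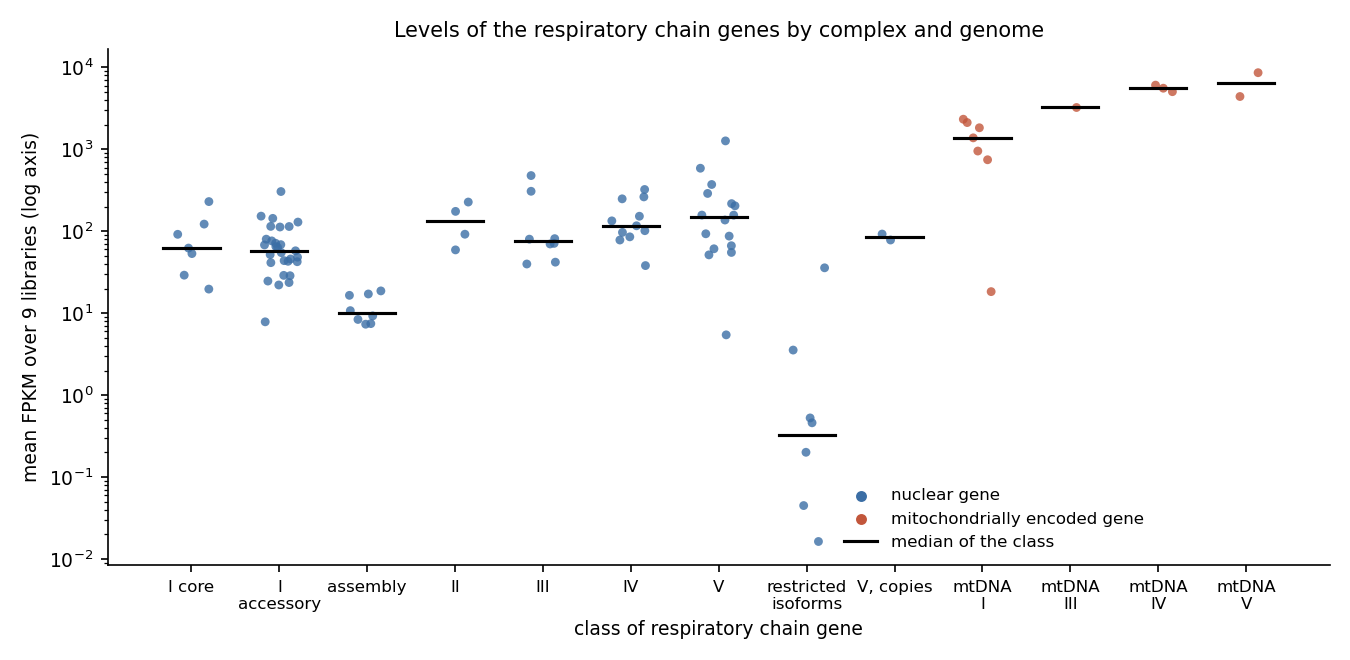
Each point is the mean FPKM of a respiratory chain gene over 9 libraries on a log axis, by class, with a line at the median of the class; Cox8b, at 0 FPKM, is not drawn and its class median includes it. All mitochondrially encoded genes except mt-Nd6 lie at or above 747 FPKM, and the nuclear genes reach up to 1270 FPKM.

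Of the 106 genes, 92 passed the filter on low counts and were tested together with all other genes, 14742 in all. The 92 comprised all 7 core and 28 of 29 accessory nuclear subunits of complex I, all 8 assembly factors, all 4 genes of complex II, all 8 of complex III, all 11 of complex IV, 14 of 16 of complex V, 4 of 8 restricted isoforms and 8 of the 13 mitochondrially encoded genes. The 14 others were Ndufs5, Cox6a2, Cox7b2, Cox8b, Cox8c, Atp5g2, Atp5l, the Atp5l copies Atp5l-ps1 and Atp5l2, mt-Nd3, mt-Nd4l, mt-Co2, mt-Co3 and mt-Atp8. Between 4.5DDC and 6.5DDC, the quasi-likelihood test of edgeR called 2 of the 92 (2.17%) at a Benjamini-Hochberg adjusted p under 0.05, beside 18.7% of all genes tested (2763 genes, of which 1358 rose and 1405 fell). Both fell: Ndufaf2, an assembly factor of complex I, and Ndufa4l2, an isoform of the complex IV subunit Ndufa4. At an unadjusted p under 0.05 the counts were 14 of 92 and 5218 of 14742. Most respiratory chain genes were therefore not called over a period in which 2763 of the tested genes were. DESeq2 called 4 (Ndufv1, Ndufa2, Ndufaf2 and Atp5s) beside 3681 of all genes, and limma voom called 1 beside 2660.

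From 4.5DDC to 5.5DDC the same edgeR test called 0 of 92, beside 0.0746% of all genes (11), and 1 of 92 passed an unadjusted p under 0.05, beside 2275 of all genes. From 5.5DDC to 6.5DDC it called 0 of 92, beside 0.224% of all genes (33), with 12 of 92 at an unadjusted p under 0.05, beside 2733. DESeq2 and limma voom also called 0 of the 92 in either interval, while DESeq2 called 495 and 671 of all genes. A direct edgeR test of whether the change differed between the intervals called 0 of 92 and 0.0% of all genes, with 0 and 701 at an unadjusted p under 0.05, and no other tool was run on it. In the single-day steps no respiratory chain gene was thus called by edgeR, DESeq2 or limma voom.

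As groups, the nuclear and mitochondrially encoded genes had similar medians over the whole period in the main fit, but not in every fit or interval. From 4.5DDC to 6.5DDC the median log2 fold change was -0.13 over the 84 tested nuclear genes and -0.15 over the 8 tested mitochondrial ones, beside 0.00 over all genes tested. Negative values were seen in 53 of the 84, in 6 of the 8, and in 49.8% of all genes. Libraries of the same number differed in direction over this period: the nuclear median was 0.316, -0.394 and -0.196 in replicates 1, 2 and 3 (64, 20 and 29 of 84 positive), and the mitochondrial median -0.277, 0.484 and -0.577 (2, 8 and 0 of 8 positive). Replicate numbers were not taken to pair the 4.5DDC and 6.5DDC libraries, so these differences rest on a matching by number alone. From 4.5DDC to 5.5DDC the medians were -0.11, -0.04 and 0.01, and from 5.5DDC to 6.5DDC they were 0.08, -0.07 and 0.02, in the same order; on log2(FPKM + 1) the nuclear median of this last interval was -0.045 (limma). By class, the 4 tested restricted isoforms had a median of -0.59 from 4.5DDC to 6.5DDC and were all negative in the main fit. Cox4i2 turned to 1.09 without 4.5DDC replicate 1, and Cox7a1 to 0.11 with an offset for base composition in each library, both uncalled. The other medians over this period were -0.03 for the complex I core, -0.13 for its accessory subunits and -0.19 for the assembly factors. They were 0.06 for complex II, -0.25 for complex III, -0.17 for complex IV and -0.02 for complex V. Single libraries moved these medians: without 6.5DDC replicate 1 the nuclear median from 4.5DDC to 6.5DDC was -0.31 and that from 5.5DDC to 6.5DDC was -0.14, and without 4.5DDC replicate 3 the mitochondrial median from 4.5DDC to 6.5DDC was 0.15. So did the choice of genes: that median was -0.03 over all 13 without a filter, -0.04 over the 13 on log2(FPKM + 1) and -0.02 over 7 with a stricter filter.

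**Figure D2:**
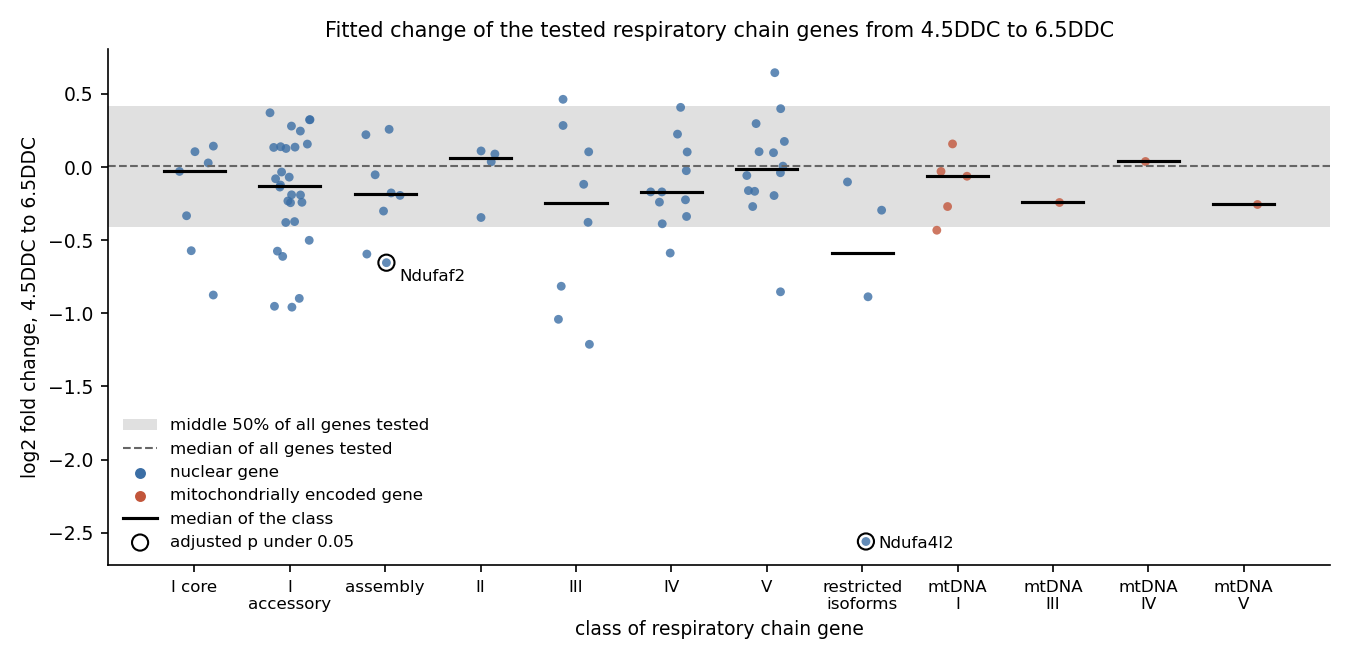
Each point is the fitted log2 fold change from 4.5DDC to 6.5DDC of a tested respiratory chain gene, by class, with a line at the class median, and the grey band spans the middle 50% of all genes tested (-0.41 to 0.42). The circled genes, Ndufaf2 at -0.65 and Ndufa4l2 at -2.56, are the 2 with an adjusted p under 0.05.

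The mitochondrially encoded subunits of complex I are the membrane proteins of its proton-pumping arm. The FPKM of mt-Nd1 was 2586, 2377 and 3081 at 4.5DDC, 1874, 2552 and 2515 at 5.5DDC, and 1732, 2377 and 1916 at 6.5DDC. In FPKM no 6.5DDC library thus lay above a 4.5DDC library, with replicates 2 of the pair equal to the digits given; relative to library totals of counts, replicate 2 was higher at 6.5DDC than at 4.5DDC. The fitted log2 fold change of -0.43 ± 0.19 (SE) was not called (Benjamini-Hochberg adjusted p = 0.137 in edgeR's quasi-likelihood test). Values for mt-Nd2 were 1530, 1308 and 1725, then 1225, 1444 and 1401, then 1151, 1454 and 1207 FPKM, and the time points overlapped. For mt-Nd4 they were 2154, 1775 and 2483, then 1882, 2205 and 2247, then 1766, 2510 and 2102. For mt-Nd5 they were 908, 702 and 1020, then 928, 1033 and 1019, then 836, 1165 and 980. Fitted log2 fold changes over the whole period were -0.27 ± 0.17 for mt-Nd2, -0.03 ± 0.20 for mt-Nd4 and 0.16 ± 0.18 for mt-Nd5, so these genes, which are cut from the same long precursor, had fitted values of both signs. In these polyA-selected libraries mt-Nd6 had 14.8, 15.9 and 23.1 FPKM at 4.5DDC, 16.9, 21.7 and 18.6 at 5.5DDC and 15.8, 25.4 and 12.9 at 6.5DDC. Its log2 fold change was -0.06 ± 0.31. Its libraries of different time points were interleaved. With an offset for base composition in each library, an alternative chosen after seeing the data, edgeR with Benjamini-Hochberg called mt-Nd1 (log2 fold change -0.57, adjusted p = 0.018) and mt-Nd2 (-0.40, 0.0218). Over all 24 alternatives mt-Nd1 was called in 2, with edgeR, DESeq2 and limma adjusted p values from 0.00751 to 0.342, and mt-Nd2 in 2, from 0.0218 to 0.609.

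Cytochrome b, the mitochondrially encoded subunit of complex III that holds haem groups beside its quinone sites, is made from mt-Cytb. It had 3480, 3174 and 3969 FPKM at 4.5DDC, 3002, 3455 and 3315 at 5.5DDC and 2436, 3616 and 3044 at 6.5DDC, with a log2 fold change of -0.24 ± 0.17. The time points overlapped. In complex IV, mt-Co1 encodes the subunit that binds and reduces oxygen, and it had 5943, 5122 and 6574 FPKM, then 5839, 6294 and 6183, then 4748, 7718 and 6313. The lowest and the highest mt-Co1 values were both from 6.5DDC libraries, replicates 1 and 2, and the fitted log2 fold change was 0.04 ± 0.20. In complex V, mt-Atp6 forms the proton channel beside the c ring, and it had 8850, 8424 and 11564 FPKM, then 7924, 8104 and 8429, then 7070, 10050 and 7246. Its counts were few for such a level, 10.6 on average, and the fitted log2 fold change of -0.25 ± 0.55 was correspondingly imprecise; without 4.5DDC replicate 3 it turned to 0.41, also uncalled.

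The other mitochondrially encoded genes had almost no counts although their FPKM was high. Mean counts were 0.111 for mt-Nd3, 0.222 for mt-Nd4l, 5.33 for mt-Co2, 3.00 for mt-Co3 and 0.111 for mt-Atp8, beside mean FPKM of 1836, 747, 5061, 5579 and 4418. These 5 could only be followed as FPKM. In FPKM, mt-Co2 had 5024, 4580 and 5775 at 4.5DDC, 4373, 5432 and 5088 at 5.5DDC and 4072, 5974 and 5234 at 6.5DDC. Values for mt-Co3 were 5033, 4746 and 5749, then 5660, 5328 and 5138, then 5507, 7378 and 5671, and those for mt-Atp8 were 4231, 4718 and 5696, then 4915, 4347 and 4186, then 3703, 4232 and 3734. In both complex IV genes 6.5DDC replicate 2 was the highest library. The remaining complex I genes had 1578, 1739 and 2388 FPKM, then 2013, 1715 and 1551, then 1937, 2146 and 1456 for mt-Nd3, and 724, 613 and 974, then 710, 765 and 791, then 595, 840 and 712 for mt-Nd4l. The 4.5DDC and 6.5DDC values overlapped for each of the 5. The same mismatch, a mean FPKM of at least 10 with a mean count under 10, was found in 10 of 93 respiratory chain genes at that FPKM (10.8%) and in 967 of 8857 symbols overall (10.9%), so it was as common among other genes.

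Of these 5, 4 have a near-identical copy in the nucleus, as do mt-Atp6 and much of mt-Nd4. On GRCm38 a stretch of the minus strand, chr1:24611535-24615565, holds 6 annotated unprocessed pseudogenes that match mitochondrial genes: Gm28661 is identical to mt-Co2 over 681 bases, Gm28437 to mt-Co3 over 783, Gm10925 to mt-Atp6 over 678, Gm10222 to mt-Nd4l over 294 and Gm28439 to mt-Nd4 over 876 of its 1378 bases. Gm28438 matches mt-Nd3 over 345 bases with a single difference, T3C (T at position 3 of mt-Nd3, counted from its start, and C in the copy). A read of 50 bases from most of these sequences fits both places, and such genes are uncertain in the counts. The sequences below are shown because they make that ambiguity visible: the opening 60 bases of mt-Nd3 (chrM:9459-9518, plus strand) beside Gm28438 (chr1:24613060-24613119, minus strand), with the differing base in capitals, and of mt-Co2 (chrM:7013-7072, plus strand) beside Gm28661 (chr1:24615506-24615565, minus strand), which do not differ.
mt-Nd3: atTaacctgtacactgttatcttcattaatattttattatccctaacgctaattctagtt
Gm28438: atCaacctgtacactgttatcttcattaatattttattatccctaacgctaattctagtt
mt-Co2: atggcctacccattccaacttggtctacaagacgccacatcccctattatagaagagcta
Gm28661: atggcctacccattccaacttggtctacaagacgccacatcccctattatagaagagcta
Of the 6 copies, Gm10222 had values in the tables used here, with a mean of 747 FPKM, the same as mt-Nd4l; the largest gap between the pair in any library was 0.7 FPKM. Of the 50-base stretches of mt-Co1, 51.1% are shared with 3 other annotated genes (28.7% with Gm29216 on chromosome 1), so its counts and change are uncertain too; in mt-Nd2 and mt-Nd5 8.19 and 7.61% are shared. By contrast mt-Nd1, mt-Nd6 and mt-Cytb share no 50-base stretch with another annotated gene. That also holds for mt-Atp8, whose exon overlaps that of mt-Atp6 over 21.1% of its length.

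Summed over all counted members, the mitochondrial and nuclear shares varied more between replicates than between time points. The nuclear genes took 0.677, 0.819 and 0.712% of all counts at 4.5DDC, 0.686, 0.703 and 0.676% at 5.5DDC and 0.843, 0.628 and 0.641% at 6.5DDC. The mitochondrially encoded genes took 1.61, 1.40 and 1.86%, then 1.42, 1.64 and 1.61%, then 1.19, 1.81 and 1.497%. The time points overlapped in both shares, and counting error was small beside most gaps between libraries, since no 95% Wilson interval had a half-width over 0.715% of its share. Within a library the ratio of mitochondrial to nuclear counts does not depend on scaling between libraries, and it was 2.39, 1.70 and 2.61, then 2.06, 2.33 and 2.38, then 1.41, 2.88 and 2.34. Its means were 2.23 ± 0.47, 2.26 ± 0.17 and 2.21 ± 0.74 (SD, n = 3 each), so the 3 time points differed by less than the spread between replicates. The extremes were both at 6.5DDC: replicate 1 had the highest nuclear and the lowest mitochondrial share, and replicate 2 the lowest nuclear share.

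**Figure D3:**
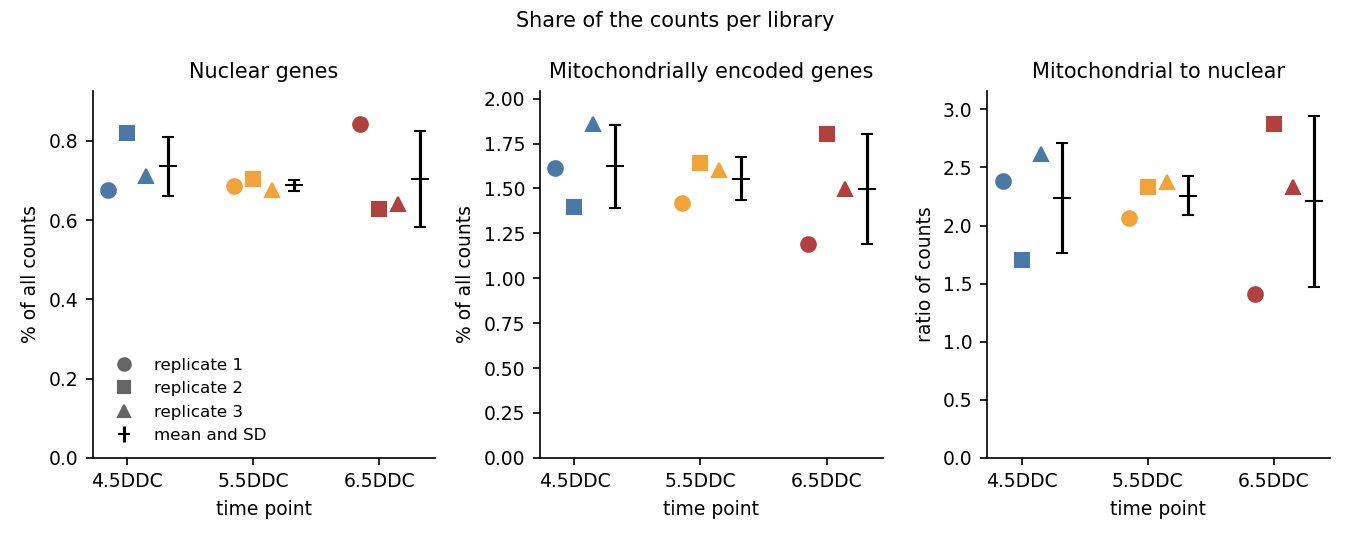
Each point is the share of all counts, or the ratio of the shares, in a library, by time point, with the mean and SD of 3 libraries in black. The 6.5DDC libraries span ratios from 1.41 to 2.88 and enclose every value of the earlier time points.

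FPKM gives high values to the genes with few counts, but its split of reads between mitochondrial genes and their nuclear copies was not tested. As FPKM, the ratio of summed mitochondrial to summed nuclear levels was 4.26 ± 0.93 (SD, n = 3) at 4.5DDC. It was 4.16 ± 0.15 at 5.5DDC and 4.24 ± 1.35 at 6.5DDC. Split by complex, it was highest in complex IV, where 3 of the largest subunits are mitochondrially encoded, at 9.56 ± 1.99, 10.1 ± 0.39 and 11.5 ± 3.69. In complex I it was 3.596 ± 0.95, 3.45 ± 0.37 and 3.42 ± 0.99, in complex V 3.69 ± 0.82, 3.40 ± 0.17 and 3.38 ± 1.16, and in complex III 3.13 ± 0.70, 3.03 ± 0.41 and 2.46 ± 0.74. No complex showed a shift between its genomes that exceeded the spread between replicates.

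The 7 nuclear core subunits of complex I carry the flavin and the iron-sulphur clusters. Among them Ndufs7, which holds the cluster next to the quinone site, had the lowest log2 fold change between 4.5DDC and 6.5DDC. It was -0.88 ± 0.42 in the main fit and -0.47 with the offset for base composition. Ndufs7 had 19.6, 32.3 and 11.8 FPKM at 4.5DDC, 37.7, 22.2 and 19.7 at 5.5DDC and 11.3, 6.12 and 16.8 at 6.5DDC, so that 4.5DDC replicate 3 lay among the 6.5DDC libraries and the value was not called (Benjamini-Hochberg adjusted p = 0.170 in edgeR's quasi-likelihood test).

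The accessory subunits surround the core of complex I and are needed for its assembly and stability. Ndufb8, the most abundant, had 253, 345 and 338 FPKM, then 289, 307 and 274, then 415, 258 and 275, and its log2 fold change was -0.19 ± 0.23. The highest change was that of Ndufa3, with 129, 153 and 134 FPKM at 4.5DDC, 144, 140 and 140 at 5.5DDC and 205, 176 and 158 at 6.5DDC. All 6.5DDC values of Ndufa3 were above all earlier ones, with a log2 fold change of 0.37 ± 0.16 that was not called (Benjamini-Hochberg adjusted p = 0.121 in edgeR's quasi-likelihood test). At the other end Ndufa2 had 61.5, 106 and 37.5 FPKM, then 78.6, 58.3 and 47.5, then 35.2, 27.2 and 42.7, and a log2 fold change of -0.96 ± 0.34. Ndufa2 missed the threshold in the edgeR test with Benjamini-Hochberg (adjusted p = 0.0779) and passed without 4.5DDC replicate 3, at a log2 fold change of -1.23 and an adjusted p of 0.0341, in DESeq2 (0.0329) and in edgeR with a block of replicate 1 (0.0499). Close to it, and chosen after their values were seen, were Ndufa11 at -0.95 and Ndufb7 at -0.90. The accessory subunit Ndufs5, also chosen later, was not tested, with a mean of 3.00 counts, and stood at 25.6 to 34.9 FPKM; 31.1% of its 50-base stretches are shared with the pseudogene BC002163.

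Assembly factors build complex I without staying in it. Ndufaf6, the most abundant of them, had 12.7, 27.2 and 22.7 FPKM, then 13.9, 18.3 and 17.2, then 19.6, 24.7 and 12.3, with overlapping time points and a log2 fold change of -0.19 ± 0.26. Ndufaf7, a methyltransferase, had 6.996, 7.19 and 6.96 FPKM, then 7.23, 6.97 and 6.46, then 8.59, 8.47 and 8.41. Its 6.5DDC libraries lay above all 6 others within a narrow range, and its log2 fold change of 0.26 ± 0.14 was not called. Ndufaf2 attaches to a late intermediate of complex I and had 19.6, 24.5 and 21.8 FPKM at 4.5DDC, 14.9, 17.6 and 14.7 at 5.5DDC and 13.1, 14.1 and 14.4 at 6.5DDC. All 6 later libraries lay below all 3 of 4.5DDC, and those of 6.5DDC lay below those of 5.5DDC. Between 4.5DDC and 6.5DDC its log2 fold change was -0.65 ± 0.19 (Benjamini-Hochberg adjusted p = 0.0391 in edgeR's quasi-likelihood test).

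The call of Ndufaf2 sat close to the threshold while its size did not move. Over 24 alternatives in edgeR, DESeq2 and limma the log2 fold change stayed between -0.75 and -0.58 and it was called in 15, with Benjamini-Hochberg adjusted p values from 0.0111 to 0.124. In edgeR it lost the call without 4.5DDC replicate 2 (adjusted p = 0.124), 4.5DDC replicate 3 (0.0835), 5.5DDC replicate 2 (0.0662), 5.5DDC replicate 3 (0.0674), 6.5DDC replicate 1 (0.0601), 6.5DDC replicate 2 (0.109) or 6.5DDC replicate 3 (0.0758), and also without a filter (0.103) and with only the 6 libraries compared (0.101). An opposite-strand transcript, B230220B15Rik, covers 65.7% of the annotated Ndufaf2 exons, and without strand information reads of the pair cannot be told apart. The Ndufaf2 promoter, from 250 bases before to 50 after its start (chr13:108158576-108158875, minus strand; RefSeq, GRCm38.p6), is shown because Ndufaf2 was the called gene with the more reads. It held none of the 3 motifs searched, so no base is in capitals.
Ndufaf2: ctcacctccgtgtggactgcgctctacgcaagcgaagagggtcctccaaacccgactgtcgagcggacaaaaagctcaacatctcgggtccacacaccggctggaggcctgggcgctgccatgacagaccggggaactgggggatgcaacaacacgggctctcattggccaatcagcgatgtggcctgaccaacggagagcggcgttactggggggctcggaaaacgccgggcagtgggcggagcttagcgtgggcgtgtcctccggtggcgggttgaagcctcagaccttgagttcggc

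Complex II, the succinate dehydrogenase that also serves the tricarboxylic acid cycle, is a tetramer of nuclear subunits, and all 4 were measured well. Sdha, the flavin subunit, had 193, 214 and 241 FPKM at 4.5DDC, 208, 223 and 244 at 5.5DDC and 262, 232 and 232 at 6.5DDC. Sdhb, the iron-sulphur subunit, had 58.2, 82.5 and 53.9, then 58.3, 66.7 and 60.3, then 65.0, 35.2 and 54.1. Sdhc and Sdhd anchor the enzyme in the membrane. Sdhc had 137, 180 and 181 FPKM, then 160, 164 and 190, then 216, 177 and 172. Sdhd had 92.2, 98.2 and 85.7, then 101, 84.4 and 83.6, then 113, 87.0 and 84.3. The time points overlapped for all 4, with log2 fold changes over the whole period of 0.09 ± 0.16, -0.34 ± 0.23, 0.11 ± 0.14 and 0.04 ± 0.15 for Sdha, Sdhb, Sdhc and Sdhd; without 6.5DDC replicate 1 that of Sdhd turned to -0.13. None of the 4 was called at any step by edgeR's quasi-likelihood test, and 0 reached an unadjusted p under 0.05; DESeq2 and limma voom called 0 as well.

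Complex III had the widest spread of fitted changes among the nuclear classes other than the restricted isoforms, from -1.21 to 0.46. Uqcrh, the hinge protein that contacts cytochrome c1, was the most abundant of the nuclear genes of complex III. It had 387, 442 and 435 FPKM at 4.5DDC, 454, 405 and 389 at 5.5DDC and 729, 589 and 481 at 6.5DDC. Each 6.5DDC library of Uqcrh exceeded all earlier ones. Its log2 fold change of 0.46 ± 0.17 was not called (Benjamini-Hochberg adjusted p = 0.0833 in edgeR's quasi-likelihood test), and it was called without 6.5DDC replicate 3 (0.60, adjusted p = 0.0389). Uqcr11, the smallest subunit, had 48.5, 87.8 and 21.8 FPKM, then 76.6, 42.7 and 31.7, then 28.7, 12.2 and 28.3. Its values at 4.5DDC ranged from 21.8 to 87.8, and a log2 fold change of -1.21 ± 0.52 was not called (Benjamini-Hochberg adjusted p = 0.128 in edgeR's quasi-likelihood test). Uqcrq, another small subunit, named after its values were seen, was at -1.04 ± 0.54, with 36.4, 95.0 and 23.1 FPKM, then 58.4, 47.5 and 23.5, then 38.2, 15.3 and 21.98. Uqcr11 and Uqcrq shared the order of the 4.5DDC libraries, highest in replicate 2 and lowest in replicate 3. That order was not particular to complex III: Ndufs7, Ndufa2, Cox6a1 and Atp5d had it too, while Uqcrh did not.

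The Uqcr11 promoter (chr10:80406772-80407071, minus strand, RefSeq, GRCm38.p6) is shown because it holds 2 of the motifs searched. Uqcr11 also had the lowest change in complex III in the main fit. With the offset for base composition Uqcr11 was at -0.74 and Uqcrq lower, at -1.06. Capitals mark the core of the ETS motif that GABPA binds, CCGGAAG, which begins at position -66 from the start, and the core of the NRF1 motif, GCATGCGC, at -4.
Uqcr11: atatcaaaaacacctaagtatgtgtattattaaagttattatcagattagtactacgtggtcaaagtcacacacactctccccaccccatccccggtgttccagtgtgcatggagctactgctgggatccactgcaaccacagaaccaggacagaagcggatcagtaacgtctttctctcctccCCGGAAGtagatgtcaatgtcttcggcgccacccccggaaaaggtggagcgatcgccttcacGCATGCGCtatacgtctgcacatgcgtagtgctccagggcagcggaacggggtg
NRF1 and GABPA are known as regulators of nuclear respiratory genes, and the match is a description of these letters only.

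Among the nuclear genes of complex IV, Ndufa4 had the highest level. This gene was long counted as a complex I subunit and is grouped here with complex IV. It had 298, 343 and 366 FPKM, then 280, 304 and 324, then 401, 321 and 279, with a log2 fold change of -0.03 ± 0.17. Cox7a2l, which joins complexes III and IV into supercomplexes, had 134, 151 and 105 FPKM at 4.5DDC, 196, 157 and 144 at 5.5DDC and 152, 153 and 182 at 6.5DDC. The 6.5DDC libraries of Cox7a2l lay above those of 4.5DDC but among those of 5.5DDC, and the log2 fold change of 0.41 ± 0.15 was not called (Benjamini-Hochberg adjusted p = 0.0812 in edgeR's quasi-likelihood test). Cox6a1 was the lowest, at -0.59 ± 0.28, with 91.0, 134 and 65.8 FPKM, then 108, 98.6 and 78.9, then 81.9, 43.5 and 68.2. With the offset for base composition Cox6a1 was at -0.03 and no longer the lowest of its class. Cox7b and Cox8a, small structural subunits, had 262, 317 and 287, then 262, 265 and 224, then 319, 235 and 198 FPKM, and 68.5, 88.5 and 75.8, then 86.3, 89.7 and 83.1, then 110, 46.6 and 56.6 FPKM. For both, 6.5DDC replicate 1 was the highest of its group. Without that library, edgeR with Benjamini-Hochberg called Cox7b (log2 fold change -0.48, adjusted p = 0.0366) and Cox8a (-0.79, 0.0260), beside -0.22 and -0.24 with it; over the other alternatives neither was called, and with the GC offset Cox8a turned to 0.14. Cox7a2, the common form of its subunit, had 92.4, 123 and 124 FPKM, then 98.6, 106 and 111, then 156, 127 and 113.

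Several complex IV subunits have isoforms restricted to heart and skeletal muscle, lung, testis or other tissues. Cox6b2, known from testis, was the single restricted isoform with a sizeable level, at 42.4, 33.04 and 23.3 FPKM at 4.5DDC, 62.7, 32.02 and 40.8 at 5.5DDC and 29.2, 25.8 and 33.6 at 6.5DDC. Its ubiquitous partner Cox6b1 had 261, 307 and 222, then 236, 261 and 252, then 271, 194 and 238. Cox6b2 made up 11.1 ± 2.53, 15.3 ± 5.17 and 11.3 ± 1.38% (SD, n = 3) of the summed FPKM of the pair, and the time points overlapped. It was thus present in every library as a minor form. The muscle isoform Cox7a1 had 1.76 to 6.22 FPKM, or 3.01 ± 2.02, 3.72 ± 1.96 and 2.38 ± 0.96% of Cox7a1 and Cox7a2 together. Cox4i2, a form found in lung, had 1.12, 0.256 and 0 FPKM, then 0.788, 1.12 and 0.131, then 0.454, 0 and 0.271. No value of its partner Cox4i1 was used here, and the medians, sums and ratios of complex IV leave it out. The isoforms Cox6a2, Cox7b2 and Cox8c reached at most 0.148, 0.703 and 0.251 FPKM in any library. Cox8b was at 0 counts throughout, which at these depths allows up to 0.118 to 0.271 CPM (counts scaled to the library total) (3 counts, counting error only).

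The pair Cox6b1 and Cox6b2 shows a common and a restricted gene of the same subunit, so their promoters are given side by side (chr7:30626065-30626364 and chr7:4753045-4753344, both minus strand; RefSeq, GRCm38.p6). Capitals mark the ETS core, read on the opposite strand, which begins at -28 in Cox6b1; none of the motifs searched was found in the Cox6b2 window.
Cox6b1: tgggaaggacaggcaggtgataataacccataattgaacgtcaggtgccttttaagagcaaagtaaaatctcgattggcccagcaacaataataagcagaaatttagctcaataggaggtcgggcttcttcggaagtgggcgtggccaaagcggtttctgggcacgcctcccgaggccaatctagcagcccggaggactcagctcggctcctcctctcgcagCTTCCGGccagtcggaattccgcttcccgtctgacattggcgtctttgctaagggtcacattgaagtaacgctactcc
Cox6b2: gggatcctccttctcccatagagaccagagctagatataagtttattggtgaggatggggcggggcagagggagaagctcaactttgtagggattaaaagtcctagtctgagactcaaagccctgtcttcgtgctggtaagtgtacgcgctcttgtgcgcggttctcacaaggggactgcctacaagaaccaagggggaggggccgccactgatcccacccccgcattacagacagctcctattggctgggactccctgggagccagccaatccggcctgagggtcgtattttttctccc

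Ndufa4l2, an isoform of Ndufa4 known to be induced when oxygen is low, was the other called gene. It had 0.832, 1.06 and 0.548 FPKM at 4.5DDC, 0.156, 0.9497 and 0.814 at 5.5DDC and 0.0786, 0.0599 and 0.250 at 6.5DDC. All 6.5DDC values were below all of 4.5DDC, but they rest on few reads: 35, 24 and 6 counts summed over the 3 libraries of each time point. The ratio of 6.5DDC to 4.5DDC, scaled to library totals, was 0.165 with a 95% exact interval of 0.0566 to 0.396. The fitted log2 fold change was -2.56 ± 0.79 (Benjamini-Hochberg adjusted p = 0.0486 in edgeR's quasi-likelihood test). It was called in 7 of 21 alternatives, with log2 fold changes from -3.40 (without 6.5DDC replicate 3) to -0.68 (limma on log2(FPKM + 1)) and adjusted p values from 0.0178 to 0.162 by edgeR or limma with Benjamini-Hochberg; DESeq2 gave it no adjusted p, and 2 further alternatives did not test it. In edgeR it lost the call without 4.5DDC replicate 1 (adjusted p = 0.0894), replicate 2 (0.134) or replicate 3 (0.0648), without 5.5DDC replicate 2 (0.0619) or replicate 3 (0.0687), and without 6.5DDC replicate 1 (0.0915), replicate 2 (0.162) or replicate 3 (0.0535). It also lost it in edgeR with library totals (0.0516), upper-quartile factors (0.0516), no filter (0.0544) or the GC offset (0.0724), and in limma voom (0.0645) and limma on log2(FPKM + 1) (0.0576). Shmt2, on the opposite strand, overlaps 2.92% of the Ndufa4l2 exons and fell too, from 1019, 1335 and 695 counts to 269, 377 and 624 (log2 fold change -1.43, adjusted p = 0.0175, edgeR with Benjamini-Hochberg); its part in the Ndufa4l2 counts was not tested. Ndufa4l2 made up 0.246, 0.206 and 0.0425% of the summed Ndufa4 and Ndufa4l2 FPKM, so Ndufa4 stood for nearly all of the pair.

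In complex V, Atp5b had 1236, 1520 and 1392 FPKM, then 1058, 1256 and 1320, then 1628, 1004 and 1012, with a log2 fold change of -0.20 ± 0.21. Its 6.5DDC libraries held both the highest and the lowest of the 9 values. Atp5s, known as factor B and the least abundant of its class, had 5.14, 3.40 and 3.92 FPKM at 4.5DDC, 5.91, 5.96 and 5.23 at 5.5DDC and 5.43, 7.07 and 6.97 at 6.5DDC. All later Atp5s values were above those of 4.5DDC, and the log2 fold change of 0.65 ± 0.22 was not called in the edgeR test with Benjamini-Hochberg (adjusted p = 0.0694). It was called in DESeq2 (adjusted p = 0.0354), in limma on log2(FPKM + 1) (0.0483) and in edgeR with a block of replicate 1 (0.0457). The delta subunit of the central stalk, Atp5d, had 63.5, 95.0 and 35.2, then 81.2, 60.4 and 54.5, then 33.2, 25.2 and 49.0, and a log2 fold change of -0.85 ± 0.34. It was not called (Benjamini-Hochberg adjusted p = 0.102 in edgeR's quasi-likelihood test) but was called without 4.5DDC replicate 3 (-1.13, adjusted p = 0.0381). With the offset for base composition Atp5d was at -0.44 and not called.

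The c ring, which turns as protons pass, is made from identical proteins encoded by 3 genes. Atp5g3 had 273, 371 and 321 FPKM, then 235, 278 and 269, then 361, 253 and 248, and supplied 67.3 ± 7.60, 61.6 ± 4.78 and 75.2 ± 6.03% (SD, n = 3) of the summed FPKM of the 3. Atp5g1 had 52.1, 93.0 and 42.4, then 49.5, 64.5 and 56.7, then 46.8, 22.1 and 37.0, and Atp5g2 had 104, 132 and 58.5, then 133, 97.7 and 85.5, then 51.5, 45.8 and 78.4. Atp5g3 thus had the largest FPKM at every time point; its shares at 6.5DDC (68.3 to 78.8%) overlapped those of 4.5DDC (62.2 to 76.1%) and lay above those of 5.5DDC. These shares use FPKM of Atp5g1 and Atp5g2, which are uncertain as described next. The scales disagreed for Atp5g1: from 4.5DDC to 6.5DDC its fitted change in counts was 0.30 ± 0.24, while on log2(FPKM + 1) it was -0.79, and neither was called. Of its 50-base stretches 11.6% are shared with other annotated genes. Atp5g2 was not tested, with a mean of 6.56 counts. The same was true, in genes named after their values were seen, of Atp5l (6.44 counts, 51.3 to 70.3 FPKM) and its copies Atp5l-ps1 (2.11 counts, 92.6 FPKM) and Atp5l2 (0.111 counts, 78.4 FPKM), which share 46.4 and 62.0% of their stretches with Atp5l.

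**Figure D4:**
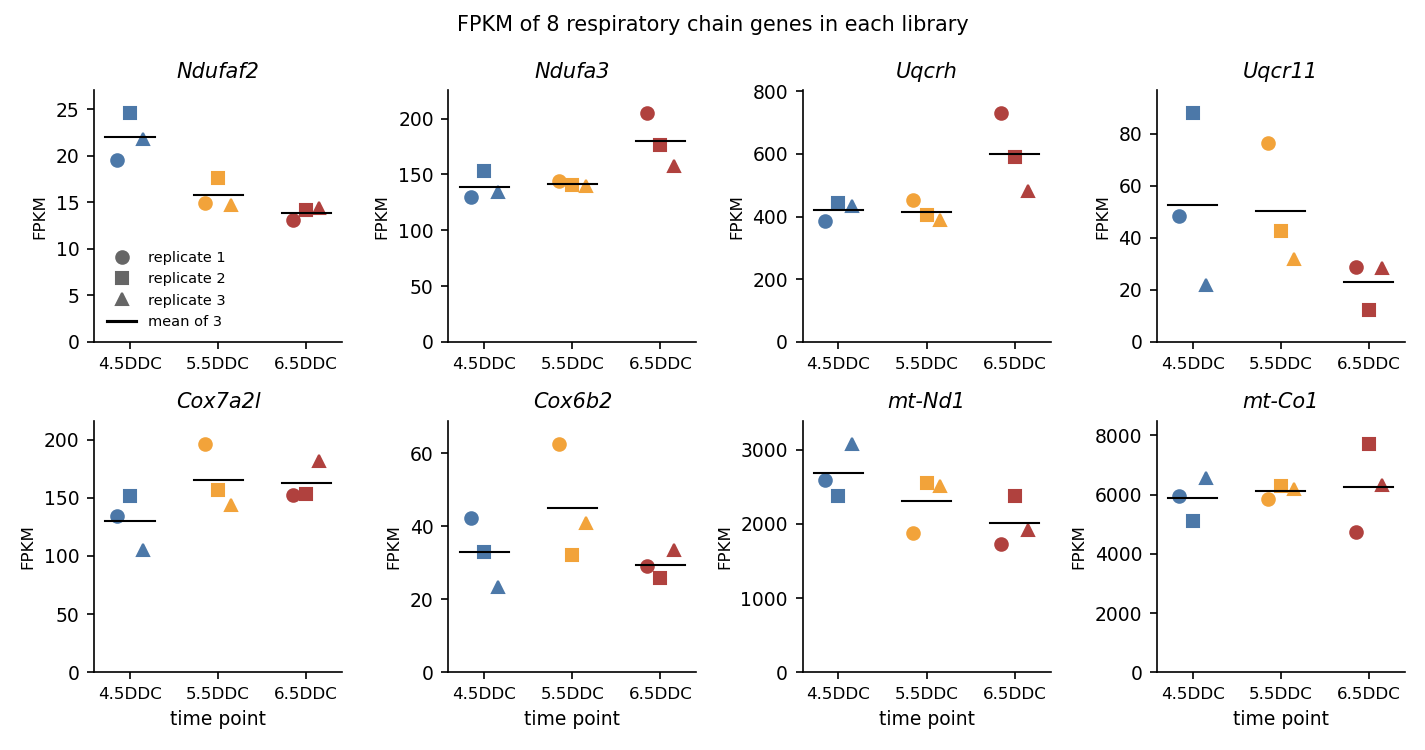
FPKM of 8 respiratory chain genes in each library, by time point, with a marker for each replicate and a line at the mean of 3. Ndufaf2 is lower at 6.5DDC (13.1 to 14.4) than at 4.5DDC (19.6 to 24.5), Ndufa3 and Uqcrh are higher, and Uqcr11 ranges from 21.8 to 87.8 at 4.5DDC alone.

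Deviations of single libraries from the mean of their time point ran with base composition. The nuclear genes had a median GC content of 49.8%, close to the 49.6% of all genes tested, and the mitochondrial genes 37.1%. For each library, a gene's deviation was taken from its mean over the 3 libraries of the same time point. Deviations therefore compare libraries within a time point, not between time points. Across the 84 tested nuclear genes, the Spearman correlation of this deviation with GC content was 0.41, 0.51 and -0.66 in the 4.5DDC libraries. It was 0.48, -0.32 and -0.41 at 5.5DDC and 0.04, -0.67 and 0.54 at 6.5DDC. Over 13735 tested genes with a GC value the same measure was 0.11, 0.49 and -0.59, then 0.19, -0.18 and -0.12, then -0.12, -0.47 and 0.49. These are correlations across genes, which are not independent replicates and share each library. Relative to the other libraries of their own time point, GC-rich respiratory genes were high in 4.5DDC replicate 2 and 6.5DDC replicate 3. They were low in 4.5DDC replicate 3 and 6.5DDC replicate 2, as GC-rich genes were in general. The fitted change from 4.5DDC to 6.5DDC had a correlation with GC of -0.44 over the nuclear genes and -0.24 over all genes, and the change from 5.5DDC to 6.5DDC of -0.64 and -0.52. From 4.5DDC to 5.5DDC it had the other sign, 0.35 and 0.21.

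With a per-library offset for GC content, chosen after seeing the data, the correlations from 4.5DDC to 6.5DDC were -0.11 and -0.01. The nuclear median was then -0.06 and the mitochondrial median -0.29, and from 5.5DDC to 6.5DDC they were 0.04 and -0.285. Between 4.5DDC and 6.5DDC edgeR with Benjamini-Hochberg called 4 members (Ndufa3, Ndufaf2, mt-Nd1 and mt-Nd2), beside 23.7% of all genes. With a block for replicate number as well it called 6 (Ndufaf2, Uqcrh, Ndufa4l2, mt-Nd1, mt-Nd2 and mt-Cytb), beside 31.7%. Ndufaf2 was in both sets, and mt-Nd1 and mt-Nd2 fell in them while not called otherwise. The part of base composition in the uncorrected values was not tested.

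**Figure D5:**
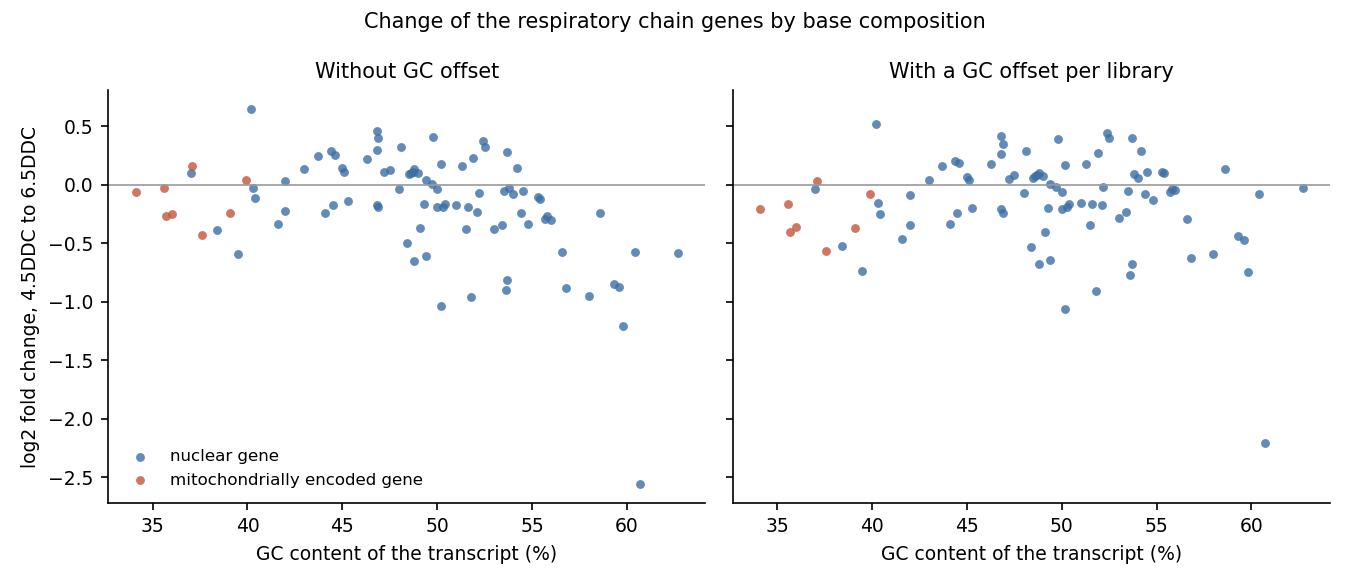
Fitted log2 fold change from 4.5DDC to 6.5DDC of the 92 tested genes against the GC content of their transcripts, without (left) and with (right) an offset for GC content in each library. Over the 84 nuclear genes the Spearman correlation is -0.44 on the left and -0.11 on the right.

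Promoters, 300 bases each, were found in RefSeq (GRCm38.p6) for 73 of the 106 genes. They were searched on both strands for the NRF1 core GCATGCGC, the ETS (GABPA) core CCGGAAG and AAGATGG, a core of the YY1 motif; the NRF1 core can overlap itself on opposite strands. The NRF1 core was found in 12 of the 73 (16.4%), beside 3.05% of 27025 genes with a promoter, and the ETS core in 17 (23.3%), beside 9.93%. AAGATGG was found in 10 (13.7%), beside 7.28%. Against promoters of tested genes, 9997 in all, the gap was smaller for the NRF1 and ETS cores but not for AAGATGG. The shares there were 6.08, 19.2 and 8.19%, beside 14.7, 23.5 and 14.7% of the 68 tested members with a promoter. The NRF1 core was found in Atp5g2, Atp5k, Atp5l, Cox6a1, Ndufa11, Ndufa6, Ndufa8, Ndufaf4, Ndufaf5, Sdhb, Uqcr11 and Uqcrc1. At least 1 motif was present in 33 of the 73 (45.2%), beside 18.6% of all genes, or in 45.6% of tested members beside 29.9% of tested genes. At least 2 were present in 6: Atp5j, Atp5k, Atp5l, Cox6a1, Sdhb and Uqcr11. Genes of all 5 complexes were thus among those with a match. The nuclear genes without an entry included Ndufs1, Ndufa2, Ndufb9, Ndufaf6, Atp5sl, Sdhc, Uqcrb, Uqcrc2, Uqcrq, Cox6c, Cox4i2, Cox6a2, Cox8c, Ndufa4l2, Atp5a1, Atp5f1, Atp5s, Atp5l-ps1 and Atp5l2, and none of the 13 mitochondrially encoded genes had an entry.

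Genes outside the chain that serve it were followed in lists, by the same edgeR test from 4.5DDC to 6.5DDC; no list had a call in either single-day interval, where unadjusted p under 0.05 was reached by 0 to 6 genes of a list and other tools were not counted. Of all genes tested 18.7% were called over that period. Of 17 tested regulators of respiratory genes, 1 rose and 2 fell (17.6% called), with a median of -0.13 beside 0.00 over all genes. Pprc1, a coactivator related to PGC-1alpha, fell by 1.41 on the log2 scale, from a mean of 26.8 to 10.8 FPKM, and Nrf1 fell by 0.71, from 31.0 to 20.1 FPKM, while the transcription factor gene Foxo3 rose by 0.57. Gabpa was at -0.13 and Ppargc1a, which encodes PGC-1alpha, at 1.13 from a low 2.72 FPKM, both uncalled. Of 26 tested genes for the expression and copying of mitochondrial DNA, 0 rose and 2 fell (Polg, the DNA polymerase, and Elac2, which trims tRNAs; 7.69% called), with a median of -0.17. Tfam, which packages mitochondrial DNA, was at -0.21 with mean FPKM of 79.7 and 75.5, and Polrmt, the RNA polymerase, at -1.01; neither was called. The mitochondrial rRNAs mt-Rnr1 and mt-Rnr2 were at 0.09 and -0.27.

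The mitochondrial ribosome, which translates the mitochondrially encoded subunits, had 77 tested genes, of which 1 rose (Mrpl24) and 4 fell (Mrpl12, Mrpl18, Mrpl4 and Mrps23), or 6.49% beside 18.7% of all genes, with a median of -0.27. A list of genes for import, folding and the membrane of mitochondria was taken for mitochondrial mass, though whether their RNA follows mass was not tested. Its 23 tested genes had a median of -0.23. Among them 1 rose (Tomm20, by 0.58) and 4 fell: Tomm40 by 1.42, Timm50 by 1.23, Hspd1 by 1.02 and Phb2 by 0.85. These 5 are 21.7% of the list, close to the 18.7% of all genes. Tomm20, Tomm40 and Timm50 belong to the import machinery of the outer and inner membranes, Hspd1 is the chaperonin of the matrix and Phb2 a prohibitin of the inner membrane. Of 38 tested assembly factors outside the symbol rule 0 rose and 1 fell (Cox10, which makes haem for complex IV), and of 19 genes of the tricarboxylic acid cycle 0 rose and 1 fell (Idh2), or 2.63 and 5.26%. Their medians were 0.01 and -0.06. Of 5 tested subunits and carriers outside the rule 0 were called and the median was -0.38, with Cyc1 (cytochrome c1) at -0.38 and Cycs (cytochrome c) at -0.39.

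Some markers of cell state were called over the same period, and their part in the values above was not tested. All 6 markers of dividing cells fell, their FPKM summing to 873, 1043 and 1130 at 4.5DDC, 604, 763 and 762 at 5.5DDC and 577, 464 and 300 at 6.5DDC, with Top2a the most abundant. Of 8 tested neuronal markers 2 rose (Map2 and Syt1), a share of 25% near the 18.7% of all genes called, with sums of 182, 441 and 323, then 178, 589 and 596, then 365, 770 and 839, and Gap43 the most abundant. In each time point replicate 1 had the lowest neuronal sum. All 7 markers of neural progenitors were tested, with sums of 2054, 2103 and 1594, then 2830, 2107 and 2346, then 2356, 1983 and 2301, led by Vim, and with Prom1 rising and Sox3 falling. Prom1, which encodes the sorted surface protein, was at 62.8 to 207 FPKM. Of 6 pluripotent markers 5 had a mean under 1 FPKM (Pou5f1, Nanog, Zfp42, Esrrb and Tdgf1), and the sums were 2.07 to 5.10. Glial markers summed to 3.19 to 11.7 FPKM, led by Olig2, with Gfap and S100b under 1. Of 3 tested glial markers 1 was called, beside 18.7% of all genes: Aqp4, which rose from a mean of 0.829 to 2.41 FPKM. Olig2 went the other way, with means of 4.996, 1.27 and 0.673 FPKM over the time points, and was not called (log2 fold change -2.89). Markers of mesenchyme and neural crest summed to 5.40 to 19.99, led by Twist1, which rose, with Sox10 under 1. The list of endoderm markers summed to 20.7 to 60.4, most of it from Foxa1 alone, at 19.3 to 50.6 FPKM. The means of Sox17 and Gata6 were under 1, and Gata4 had means of 1.36, 1.26 and 3.54 FPKM. Since it rests mostly on a single gene, this sum does not by itself show endoderm cells. The blood marker Hbb-b1 was at 0 in every library and Ptprc under 1 FPKM.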

How the data were processed

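The authors aligned single-end 50-base reads to GRCm38 with TopHat2 2.0.4. They deposited counts per gene from HTSeq 0.6.1 and FPKM from Cufflinks 2.1.1, per the labels and the study's methods. The annotation release and the strand setting of the counting are not given in the sources used here. The deposited values are estimated counts in part: 98 of 38197 symbols, none a member, were not whole and were rounded. A further deposited table, of transformed counts, was not used. The members and lists were chosen with earlier results of these data known.

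All 9 libraries were fitted together, grouped by time point, in edgeR 4.0.16 (R 4.3.3) after filterByExpr and TMM scaling, with the quasi-likelihood test and Benjamini-Hochberg adjustment over 14742 genes at 0.05. The test was checked on simulated data. Levels are FPKM, and an exact permutation test of 3 against 3 libraries cannot give p under 0.1, so none is printed. Library totals were 11066568 to 25506193 counts, and 3 counts is 0.118 to 0.271 CPM. Intervals and floors cover counting error only. Named genes were all mitochondrial members, all called members, per class the highest level, rise and fall, the restricted isoforms with partners, complex II, and from each list up to 3 called genes in each direction; other genes are marked as chosen later or stand in full lists (of called, untested, matching or overlapping genes, Mrps23 and Phb2 among them). A gene within the rule is not reported here by itself, though it stays in the counts and medians. Transcript sequences and overlaps came from GENCODE M21.

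Alternatives were DESeq2 1.42.0, limma 3.58.1 (voom, and log2 FPKM with a pseudocount of 1 or 0.1), other scalings and filters, single libraries left out, blocks, and, added after seeing the data, a GC offset with and without the block, a minimum mean FPKM of 1, and a block in the test between intervals. Replicate numbers in the labels were taken to pair libraries of adjacent time points where each correlation of deviations exceeded 0.1; these were 0.743, 0.386 and 0.452 between 4.5DDC and 5.5DDC and 0.454, 0.367 and 0.197 between 5.5DDC and 6.5DDC, but not 4.5DDC and 6.5DDC (0.383, -0.040 and -0.215). Only replicate 1 stood apart: libraries with different numbers reached 0.390 (4.5DDC replicate 3 with 5.5DDC replicate 2), 0.291 (4.5DDC replicate 2 with 5.5DDC replicate 3), 0.405 (5.5DDC replicate 3 with 6.5DDC replicate 2), 0.487 (4.5DDC replicate 3 with 6.5DDC replicate 2) and 0.460 (4.5DDC replicate 2 with 6.5DDC replicate 3), so the pairing of replicates 2 and 3 is unsure.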

Additional observations from a re-analysis of the deposited data

How the results depend on the processing

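From 4.5DDC to 6.5DDC 2 members were called in edgeR. The count was 1 with library totals, upper-quartile factors, limma voom, the stricter filter, the 6 libraries compared, or limma on log2(FPKM + 1) over symbols with a mean FPKM of at least 1, and 0 without a filter, where 105 members were tested. It was 4 in DESeq2, 4 with a block of replicate 1 and 4 with the GC offset, where 3681, 4382 and 3496 of all genes were called beside 2763 in the main fit. With the replicate block it was 2, and 6 with the block and the GC offset, so the paired fit alone changed no count of members, although calls over all genes went from 11 to 212, 33 to 195 and 2763 to 3418 for 4.5DDC to 5.5DDC, 5.5DDC to 6.5DDC and 4.5DDC to 6.5DDC. Leaving out single libraries gave 0 to 2: 0 without 4.5DDC replicate 2, 5.5DDC replicate 2, 5.5DDC replicate 3 or 6.5DDC replicate 2 (with 1179, 1982, 2040 and 1137 of all genes called, beside 2763), 1 without 4.5DDC replicate 1 (Ndufaf2) or 6.5DDC replicate 3 (Uqcrh), and 2 without 4.5DDC replicate 3 (Ndufa2 and Atp5d), 5.5DDC replicate 1 (Ndufaf2 and Ndufa4l2) or 6.5DDC replicate 1 (Cox7b and Cox8a). In the single-day intervals the count was 0 under all 24 alternatives, and in the test between intervals it was 0 with the block. Without single libraries, calls over all genes were 1 to 30 from 4.5DDC to 5.5DDC and 0 to 167 from 5.5DDC to 6.5DDC. Leaving out libraries moved the nuclear medians from -0.171 to -0.025 (4.5DDC to 5.5DDC), from -0.139 to 0.137 (5.5DDC to 6.5DDC) and from -0.308 to -0.042 (4.5DDC to 6.5DDC), and the mitochondrial medians from -0.162 to 0.12, -0.203 to 0.029 and -0.335 to 0.152; the lowest nuclear medians of the later pairs came without 6.5DDC replicate 1 and the highest mitochondrial median of the whole period without 4.5DDC replicate 3. Shares of counts moved by less than the spread between replicates under each alternative tried. Of 902 recomputed changes of 38 tested named members, 855 kept their call or lack of it, among them 30 uncalled values of 9 genes that turned sign within their SE, 23 lost the call, 17 gained it, 7 uncalled values moved beyond their spread, and 0 called values reversed. Genes with few counts beside a high FPKM (10 members) could be read as FPKM alone, and counts of 35, 24 and 6 limit what can be said of Ndufa4l2.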
